A study of Mus musculus with 8 samples.

Results

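Control siRNA cells were examined for which transcripts were held in heavy polysomes and which were left out of them. All values come from the Cy3 channel, which carried the control siRNA sample on every array, so both fractions were read in the same dye. These are 8 labelled samples of the 16 in the series, which were hybridised in pairs to 8 arrays. Of the 8, 4 held total RNA and the other 4 held RNA of the heavy polysome fractions. The cells, lymph node stromal cells cultured from the BALB/c strain of mouse, were transfected with 400 pmol of a control siRNA by lipofection. They were harvested 48 h later from 7 plates per siRNA, and the cells for the gradients were pooled. The Cy5 channel of the same arrays carried cells given siRNA against Eif4g3, a translation initiation factor of the eIF4G family.

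Polysomes are mRNAs carrying several ribosomes, and a sucrose gradient separates RNA by the number of ribosomes bound to it. A transcript lower in heavy polysome RNA than in total RNA has a smaller share of its copies on many ribosomes than other transcripts. An mRNA with a short coding region has room for few ribosomes, and non-coding RNAs are mostly not translated. Ribosomal protein mRNAs start with a pyrimidine tract through which growth signals control their loading, and ferritin mRNAs carry an iron-responsive element that blocks initiation when iron is scarce.

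The same mass of RNA, 200 ng, was labelled from each fraction, so a value is a share of its fraction and not an amount per cell. Differences are given as heavy polysome minus total RNA on the log2 scale, with the standard error of a limma fit over 4 arrays against 4. Adjusted p-values are Benjamini-Hochberg values over all genes tested, are two-sided, and count as passing below 0.05. The labels do not state that replicates were separate cultures, so the p-values measure the spread between these samples, which may be technical. Total RNA array 2 lay apart on the first principal component (33.4% of the variance) and had been extracted with another Feature Extraction version on a slide of its own. Heavy polysome array 1 lay apart on the second component (27.2%) and had the lowest share of spots well above background, 38.4% against 46% to 58% on the other arrays. Each of the 5 slides held 1 fraction only. The stromal label was checked against markers: 9 of 10 fibroblast markers, including Pdpn, Pdgfra, Pdgfrb and Thy1, were well above background on all 8 arrays. Lymphocyte markers were well above it on all 8 arrays for 0 of 10 genes, and 6 of them were so on no array. Of 10 endothelial markers Vwf was above it on all 8 arrays, and Pecam1, Tie1, Lyve1 and Prox1 on none. Of 8 epithelial markers Krt19 was above it on all 8 arrays, and Cdh1 and Cldn4 on none. Of 10 macrophage markers, 5 were well above background throughout, among them Csf1r and Lyz2, while Adgre1, Mrc1 and Itgam were on no array. The summed intensity of the macrophage list was 2584 to 3909 on the total RNA arrays and 2514 to 5622 on the heavy polysome arrays. That of the epithelial list was 2018 to 4158 and 3331 to 4395. The part of these cells in the results was not tested.

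Among 14135 genes tested, the transcripts that differed were almost all depleted from heavy polysomes. In heavy polysome RNA 244 genes were lower (1.73%) and 1 was higher (0.00707%). Of these, 213 were lower by at least 2-fold (1.51%) and 28 by at least 4-fold. The smallest difference that passed was 0.8 on the log2 scale, while the median over all genes was 0.01. At an unadjusted p under 0.05 the counts were 1306 lower (9.24%) and 417 higher (2.95%). All 4 heavy polysome arrays lay below all 4 total RNA arrays for 1064 genes (7.53%) and above them for 297 (2.1%).

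Of the 244 genes, 221 (90.6%) were well above background on all 8 arrays, against 77% of all genes tested. Their probes' median signal in total RNA was 11.74 on the log2 scale against 9.35 over all genes, and a probe near the background cannot show a large drop. RefSeq gave 212 of them a name. They comprised 188 protein-coding genes, 19 long non-coding RNAs, 3 pseudogenes and 2 transcribed pseudogenes. Relative to the total RNA mean, their median on the total RNA arrays was -0.12, 0.19, -0.07 and 0. On the heavy polysome arrays it was -1.33, -1.33, -1.37 and -1.28. The genes were chosen by this difference, so the gap is a description. For 87 of the 244 genes another probe was also tested. Of those 111 probes 108 lay below 0, 52 of them by at least 2-fold, with a median of -0.94.

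**Figure D1:**
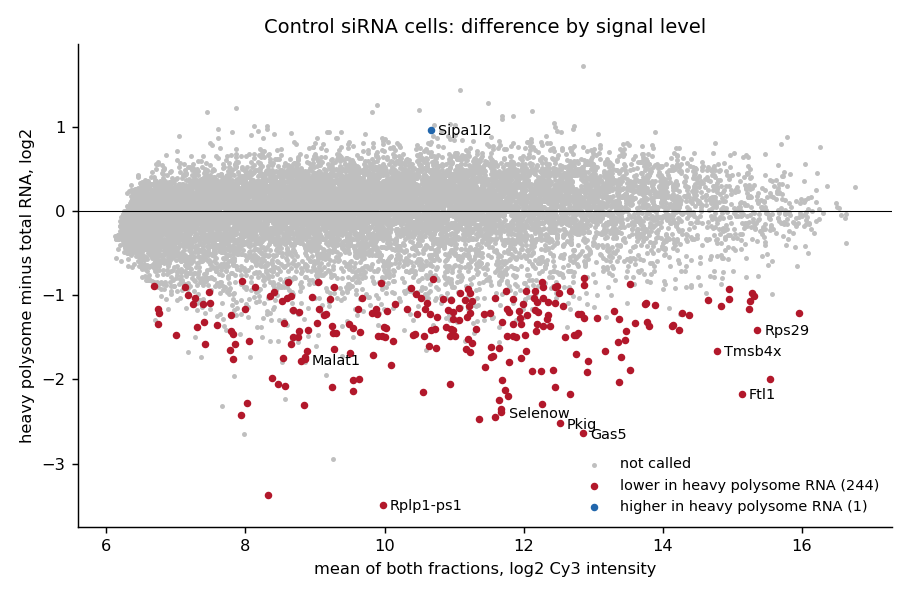
Difference between fractions (heavy polysome minus total RNA, log2) against the mean log2 Cy3 intensity of both fractions, 1 point per gene, 14135 genes. The 244 genes lower in heavy polysome RNA (red) span the range of intensities, and the 1 higher gene, Sipa1l2 (blue), is 0.96 above 0.

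The count rests on few arrays. It was 61 without heavy polysome array 2, 75 without array 3, 85 without array 4, 100 without total RNA array 3 and 132 without total RNA array 4. With the replicate number as a block in the fit it was 53. With each array only centred on its median, which moved the median of all genes to -0.17, limma called 0 genes in either direction (582 lower and 1 higher at an unadjusted p under 0.05). The 244 genes stayed below 0 there.

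The most depleted protein-coding transcripts included a kinase inhibitor, an actin-binding peptide, ferritin and a mitochondrial assembly factor. Pkig, which encodes an inhibitor of cAMP-dependent protein kinase (probe at mm8 chr2:163417489-163417548), read 13.63, 14.02, 13.79 and 13.68 on the total RNA arrays. It read 10.98, 11.25, 11.52 and 11.28 on the heavy polysome arrays. Every heavy polysome array was more than 2 log2 units below every total RNA array, and the difference was -2.52 ± 0.19 (5.75-fold lower, adjusted p = 0.000474). Wbp1, whose product binds WW domains (chr6:83084744-83084803), read 13.48, 13.74, 13.78 and 14.04 in total RNA against 11.91, 11.46, 11.33 and 11.6 in heavy polysome RNA. Its difference was -2.18 ± 0.20 (adjusted p = 0.0011), with no overlap between fractions. Bola3, an iron-sulphur cluster assembly factor of mitochondria, read 13.55, 13.56, 13.5 and 13.34 in total RNA against 11.72, 11.41, 11.22 and 11.25 in heavy polysome RNA. The difference was -2.09 ± 0.18 (adjusted p = 0.000907), and the arrays of each fraction lay within 0.5 of each other.

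Others of like size varied more between arrays or probes. Tmem134, a transmembrane protein gene, differed by -2.24 ± 0.25 (adjusted p = 0.003), and its other probe gave -2.73. Metrn, which encodes the secreted factor meteorin, differed by -2.15 ± 0.30 (adjusted p = 0.00785), with -1.67 for its other probe. Mzt1, a small partner of the gamma-tubulin complex, differed by -2.14 ± 0.38 (adjusted p = 0.0205), with -1.25 for its other probe. Dph3, which acts in the diphthamide modification of elongation factor 2, differed by -2.20 ± 0.27 (adjusted p = 0.00479), but its other probes gave -0.84 and -0.94. For Pcif1, the methyltransferase of cap-adjacent adenosine, the brightest probe gave -2.30 ± 0.39 (adjusted p = 0.0191) and the others -0.09 and -0.14, so its probes disagree. The largest value of all belonged to the pseudogene Rplp1-ps1 at -3.49 ± 0.75 (adjusted p = 0.0476). Its total RNA readings were 11, 14.55, 10.53 and 10.8, with array 2 far above the others, and its near-identical parent Rplp1 makes the identity of the signal uncertain.

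**Figure D2:**
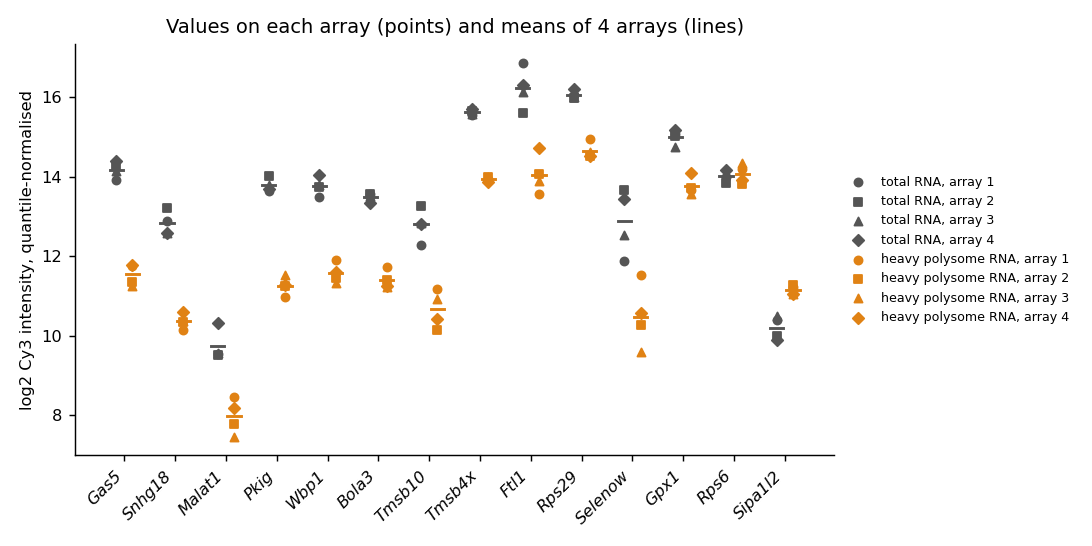
Log2 Cy3 intensity of 14 genes on each array (points; the marker shape gives the array number) and the mean of 4 arrays (lines), total RNA in grey and heavy polysome RNA in orange. The fractions do not overlap for 13 of these genes, Sipa1l2 among them in the upward direction, and they overlap for Rps6. Heights of different genes are not comparable.

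Long non-coding RNAs lay mostly on the depleted side. Of 188 tested, 19 passed (10.1%), against 188 of 12273 protein-coding genes (1.53%). Their median difference was -0.43 against 0.03 for protein-coding genes, and 170 of 188 lay below 0. All 4 heavy polysome arrays lay below all 4 total RNA arrays for 64 of them (34%, against 7.53% of all genes), and for 0 did all lie above. The count of 19 was 6 without heavy polysome array 2, 7 without array 3, 8 without array 4, and 9 without total RNA array 3 or without total RNA array 4. With the replicate number as a block it was also 6. Relative to the median of all genes, their median ran from -1.02 to -0.29 over the normalisations and other settings tried.

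The strongest of these RNAs were hosts of small nucleolar RNAs, which are cut from introns while the spliced host is exported or decays. Gas5, the growth-arrest host transcript (probe at mm8 chr1:162873990-162874682), read 13.9, 14.27, 14.15 and 14.38 in total RNA against 11.74, 11.36, 11.26 and 11.77 in heavy polysome RNA. The difference was -2.64 ± 0.20 (6.23-fold lower, adjusted p = 0.000474), with more than 2 log2 units between the closest arrays. A second, dim Gas5 probe gave -0.41 and was well above background on 1 of 4 heavy polysome arrays. Zfas1 (chr2:166754898-166756388) read 11.83, 12.71, 12.61 and 13.24 in total RNA against 10.38, 9.85, 10.05 and 10.23 in heavy polysome RNA, a difference of -2.47 ± 0.28 (adjusted p = 0.00305). Snhg18 (chr15:32185197-32185256) read 12.88, 13.22, 12.57 and 12.59 against 10.15, 10.34, 10.38 and 10.59, a difference of -2.45 ± 0.20 (adjusted p = 0.000821). In both genes every heavy polysome array lay well below every total RNA array.

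In all, 8 long non-coding RNA genes tested have a small nucleolar RNA inside them in the RefSeq gene table. All 8 lay below 0, 4 passed (50%) and their median was -1.92. The 180 without one had a median of -0.39, and 15 passed (8.33%). Of 63 protein-coding genes with a small nucleolar RNA inside, 1 passed (1.59%, against 1.73% of all genes) and the median was -0.06. It was Ipo7, an import receptor (-1.06 ± 0.20, adjusted p = 0.0232). Ipo7 did not pass as the mean of its tested probes, and over 21 other settings its value ran from -1.37 to -0.37. The difference between these classes was not tested. The listed host 1110038B12Rik (chr17:34558355-34558414) read 13.05, 14.06, 13.03 and 13.5 in total RNA against 11.36, 11, 11.12 and 11.02 in heavy polysome RNA, with no overlap and a difference of -2.29 ± 0.25 (adjusted p = 0.00239). The other 4 of the 8 were below 0 without passing: Snhg16 at -1.55 (adjusted p = 0.0986), Snhg3 at -1.47 (0.13), Snhg7 at -1.16 (0.0528) and 2700038G22Rik at -0.86 (0.0799). Snhg5 at -1.32 (adjusted p = 0.0915) and Snhg11 at -0.43 (0.413) have none inside in that table.

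**Figure D3:**
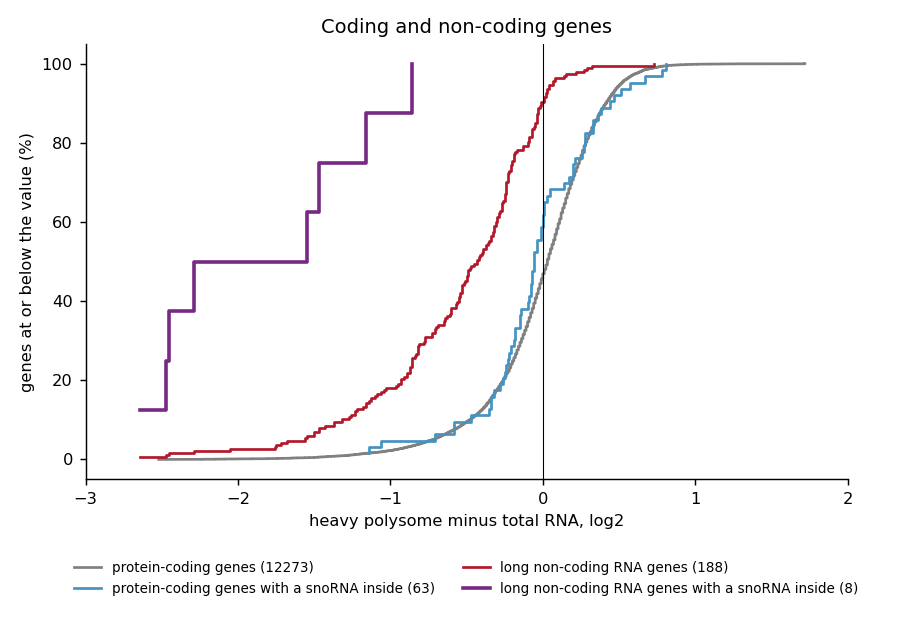
Cumulative share of genes (%) at or below each difference (heavy polysome minus total RNA, log2) for 12273 protein-coding genes, 63 of them with a small nucleolar RNA inside, and for 188 long non-coding RNA genes, 8 of them with one. The median is 0.03 for protein-coding genes, -0.06 for those with a small nucleolar RNA inside, -0.43 for long non-coding RNAs and -1.92 for the 8 hosts.

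Of 4 other long non-coding RNAs chosen by role and tested, Malat1 was lower, and Neat1, Meg3 and Xist did not pass. Malat1, a nuclear speckle RNA, read 9.55, 9.52, 9.56 and 10.31 in total RNA against 8.45, 7.78, 7.46 and 8.18 in heavy polysome RNA. Its difference was -1.76 ± 0.27 (adjusted p = 0.0113), all arrays of one fraction were below all of the other, and its other probes gave -0.79 and -0.96. Neat1, the scaffold of paraspeckles, had a value of -1.13 ± 0.35 (adjusted p = 0.187), and Meg3, an imprinted RNA, of -0.82 ± 0.20 (adjusted p = 0.0764). Xist, which coats the inactive X chromosome, had -0.05 (adjusted p = 0.97), and its other probe 0.07. Oip5os1, also called Cyrano, differed by -1.23 ± 0.25 (adjusted p = 0.0345), with -2.18 and -2.48 for its other probes. Dubr (-1.50 ± 0.32, adjusted p = 0.0449), Foxd2os (-1.16, adjusted p = 0.025) and Particl (-0.83, adjusted p = 0.0482) passed as well. Of 21 other settings Particl did not pass in 16, Dubr and Oip5os1 in 12 each, Foxd2os in 7 and Malat1 in 2. On a list of 22 tested long non-coding and host RNAs, which included other RNA types, all lay below 0 and the median was -1.17. Of the 22, 5 passed (22.7%, against 1.73% of all genes). The list's median by array was -0.25, 0.21, -0.13 and 0.22 on total RNA arrays and -0.75, -1.2, -1.39 and -0.9 on heavy polysome arrays.

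Some of these RNAs have a listed start of the type that marks ribosomal protein mRNAs. RefSeq promoter records (GRCm38.p6) were searched on the transcribed strand for a start at C followed by at least 4 pyrimidines. Each window holds 10 bases before the listed start and 20 from it, and the capitals mark the tract. They are printed to show the tract in 4 long non-coding RNAs (Gas5, 1110038B12Rik, Oip5os1 and Snhg7) and in 3 protein-coding genes (Rps6, Rps21 and Nap1l1), whose values follow.
Gas5 (chr1:161035156-161035185, plus strand): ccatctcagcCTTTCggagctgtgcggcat
1110038B12Rik (chr17:34952449-34952478, minus strand): gcacacgggtCTCTTTgtgcacccgcccac
Oip5os1 (chr2:119594286-119594315, plus strand): ggggcggagcCTTTCgcgcctccgcccctg
Snhg7 (chr2:26640225-26640254, minus strand): gatgctcggcCTCTCggcagccatggcggc
Rps6 (chr4:86857348-86857377, minus strand): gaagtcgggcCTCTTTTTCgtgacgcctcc
Rps21 (chr2:180257369-180257398, plus strand): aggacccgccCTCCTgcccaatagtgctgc
Nap1l1 (chr10:111473217-111473246, plus strand): gctctcgggtCTTTTTTagcgccatctgct
Such a start was found at 823 of 32851 listed starts (2.51%) and in 303 of 10030 tested genes with a listed start (3.02%). Of the 303 genes, 10 were lower (3.3%, against 1.83% of the 10030), and their median was -0.04. All 10 long non-coding RNAs with such a start lay below 0, with 3 lower (Gas5, 1110038B12Rik and Oip5os1) and a median of -0.94. The search found such a start in 14 ribosomal protein genes, of 32 small-subunit and 47 large-subunit genes tested, so it left out most of them. These 14 ribosomal protein genes had a median of -0.08, and 0 passed. The difference between these classes was not tested either. Rps6 read 14, 13.83, 14.08 and 14.17 in total RNA against 14.18, 13.82, 14.35 and 13.9 in heavy polysome RNA, so the fractions overlapped and the value was 0.05 ± 0.19 (adjusted p = 0.949). Relative to the median of all genes it was 0.04, and -0.32 with median centring. Nap1l1, a histone chaperone, had 0.25 ± 0.22 (adjusted p = 0.727) and lay 0.07 to 0.24 above the median of all genes over the scalings. Rps21, a small-subunit protein, had -0.77 ± 0.20 (adjusted p = 0.108). Listed starts can differ from those used in these cells.

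Ribosomal protein mRNAs lay mostly below 0, where 49.1% of all genes lay. Of them 2 passed, a share near the 1.73% of all genes. Of 32 small-subunit genes 25 lay below 0, with a median of -0.15 and 1 that passed (3.12%). Of 47 large-subunit genes 42 lay below 0, with a median of -0.16 and 1 that passed (2.13%). The size of these medians depends on the scaling: with median centring both were -0.75, and relative to all genes they ran from -0.6 to -0.06 and from -0.58 to -0.11. By array the small-subunit median was -0.08, 0.05, 0.08 and 0.02 in total RNA against 0.15, -0.27, -0.07 and -0.37 in heavy polysome RNA. The large-subunit median was -0.19, 0.18, 0.08 and 0.03 against 0.21, -0.29, -0.19 and -0.45. On heavy polysome array 1 both lay above all 4 total RNA arrays. Rps29 read 16.04, 15.98, 16.01 and 16.21 in total RNA against 14.95, 14.52, 14.62 and 14.51 in heavy polysome RNA. Its fractions were more than 1 log2 unit apart, with a difference of -1.41 ± 0.18 (adjusted p = 0.00534). Rpl41 read 16.54, 16.28, 16.7 and 16.76 against 15.01, 15.24, 15.74 and 15.46, also with no overlap, and differed by -1.21 ± 0.21 (adjusted p = 0.0193). Rps28 had -0.99 (adjusted p = 0.071). Rplp0, a stalk protein, had -0.65 (adjusted p = 0.127), with other probes at -0.23 and -1.29. Among 25 other mRNAs known for such a tract 0 passed and the median was 0.02, with Pabpc1, the poly(A)-binding protein, at -0.73 (adjusted p = 0.256) and Tpt1 at -0.58 (adjusted p = 0.395). Ribosomal protein genes have many processed copies in the genome, so probe signals may include them.

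Coding lengths were not used here, so the depleted mRNAs were not compared by length. The gene name families below were chosen after their values were seen. Tmsb4x and Tmsb10 encode thymosins, peptides that bind actin monomers. Tmsb4x read 15.55, 15.64, 15.56 and 15.69 in total RNA against 13.94, 13.99, 13.98 and 13.87 in heavy polysome RNA. The arrays within each fraction nearly coincided, and the difference was -1.66 ± 0.16 (3.17-fold lower, adjusted p = 0.00123). Tmsb10 (mm8 chr6:72887114-72887433) read 12.28, 13.27, 12.83 and 12.8 against 11.18, 10.14, 10.92 and 10.41, a difference of -2.13 ± 0.28 (adjusted p = 0.00651) with -1.92 for its other probe. They were the 2 of 40 genes on the actin cytoskeleton list that passed (5%, against 1.73% of all genes), and the list's median was 0.04. Tma7, a translation machinery-associated protein, differed by -1.91 ± 0.26 (adjusted p = 0.00727). Ost4, a tiny subunit of the oligosaccharyltransferase, differed by -1.64 ± 0.30 (adjusted p = 0.0243).

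Several mitochondrial import and assembly factors were lower. The name families in this paragraph were also chosen after their values were seen. That choice by itself raises their shares of passing genes, so these shares are a description. Among 23 Tomm and Timm genes, which encode import complexes of both membranes, 5 passed (21.7%, against 1.73% of all genes) and the median was -0.47. These were Timm8b (-1.78 ± 0.24, adjusted p = 0.00682), Tomm5 (-1.73 ± 0.18, adjusted p = 0.00231), Tomm6 (-1.67 ± 0.29, adjusted p = 0.0195), Timm8a1 (-1.19, adjusted p = 0.0243) and Timm10b (-1.09, adjusted p = 0.0191). Tomm5 and Tomm6 are small subunits of the outer membrane channel, and the Timm members are small chaperones of the space between the membranes. Among 16 genes named Coa, Uqcc, Sdhaf or Cmc, assembly factors of respiratory complexes, 5 passed (31.2%, beside the same 1.73%) and the median was -0.8. They were Coa5 (-1.48 ± 0.19, adjusted p = 0.00561), Sdhaf1 (-1.48 ± 0.25, adjusted p = 0.0191), Uqcc3 (-1.23 ± 0.21, adjusted p = 0.0191), Cmc2 (-1.05, adjusted p = 0.0262) and Coa4 (-0.91, adjusted p = 0.0363). Of 15 small integral membrane protein genes (Smim), 3 passed (20%, beside 1.73%) with a median of -0.86: Smim27 (-2.42 ± 0.41, adjusted p = 0.0191, well above background on 2 heavy polysome arrays), Smim20 (-1.61 ± 0.23, adjusted p = 0.00846) and Smim10l1 (-1.46 ± 0.26, adjusted p = 0.0206). Of 5 Lamtor genes, subunits of the Ragulator complex of lysosomes, Lamtor1 (-1.53 ± 0.17, adjusted p = 0.00287) and Lamtor5 (-1.04, adjusted p = 0.0396) passed (40%, beside 1.73%). As the mean of tested probes Lamtor1 and Smim27 did not pass, and over 21 other settings Lamtor1 ran from -2.03 to -0.67. Of those settings Lamtor5 did not pass in 13, Coa4 in 12, Cmc2 in 11 and Smim10l1 in 9. The other genes named here failed in fewer.

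Nuclear genes of oxidative phosphorylation, 75 tested, had a median of -0.08, or -0.37 to -0.09 relative to all genes over the scalings. Of these 75 genes 2 passed (2.67%, near the 1.73% of all genes). One was Atp5e, the epsilon subunit of the ATP synthase, which read 14.71, 15.13, 15 and 14.97 in total RNA against 14.14, 13.65, 13.14 and 13.18 in heavy polysome RNA. Its fractions did not overlap, and the difference was -1.42 ± 0.24 (adjusted p = 0.0191). The other was Uqcr10 of complex III (-1.37 ± 0.28, adjusted p = 0.0351). Of 21 other settings Uqcr10 did not pass in 13 and Atp5e in 9. By name, 36 Nduf genes of complex I had a median of 0.05 and 23 Cox genes one of -0.5, with 0 passing in each. Of 78 mitochondrial ribosomal protein genes 1 passed (1.28%), Mrpl42 (-1.34 ± 0.25, adjusted p = 0.0262, -1.48 for its other probe). The list's median was -0.03, or -0.23 to -0.03 relative to all genes over the scalings. Mrps21 (-1.12, adjusted p = 0.0569) and Mrpl30 (-0.97, adjusted p = 0.0582) had values of the same sign. Of 21 other settings Mrpl42 did not pass in 10, while Mrps21 and Mrpl30 passed in 4 each. Of transcripts encoded in the mitochondrion, 3 were tested and 0 passed, with a median of -0.57. ND4L read 10.58, 14.53, 13.54 and 12.92 in total RNA against 12.59, 11.79, 12.13 and 12.1 in heavy polysome RNA, so total RNA array 1 was low and array 2 high and the fractions overlapped (-0.74 ± 0.66, adjusted p = 0.723).

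Selenoprotein mRNAs, in which a stop codon is read as selenocysteine, had 4 of 20 members lower, against 1.73% of all genes, and a median of -0.38. Selenow (mm8 chr7:15075726-15075785) read 11.87, 13.66, 12.54 and 13.44 in total RNA against 11.52, 10.26, 9.59 and 10.56 in heavy polysome RNA. The lowest total RNA array and the highest heavy polysome array were both array 1 and nearly met, and the difference was -2.39 ± 0.46 (adjusted p = 0.0293). Gpx1, a glutathione peroxidase that removes hydrogen peroxide, read 15.08, 15.02, 14.73 and 15.16 against 13.65, 13.71, 13.57 and 14.09, a difference of -1.24 ± 0.19 (adjusted p = 0.0114) with no overlap. Gpx4, which reduces lipid peroxides, read 14.86, 15.48, 15.65 and 15.62 against 14.49, 14.04, 14.27 and 14.29 and differed by -1.13 ± 0.22 (adjusted p = 0.0289). Selenoh, a nucleolar selenoprotein, read 11.59, 12.75, 11.52 and 12.3 against 10.4, 10.66, 10.36 and 10.44 and differed by -1.57 ± 0.27 (adjusted p = 0.0193). In Gpx4 and Selenoh, as in Gpx1, every heavy polysome array lay below every total RNA array. These calls were not stable: of 21 other settings Gpx4 failed to pass in 12, Selenow in 10, Selenoh in 8 and Gpx1 in 4. Without heavy polysome array 2, or without heavy polysome array 3, 0 of the 4 passed. The median by array was -0.12, 0.19, -0.04 and -0.05 in total RNA against -0.22, -0.32, -0.63 and -0.48 in heavy polysome RNA.

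Among 12 iron-regulated mRNAs only the ferritin light chain passed (8.33%, against 1.73% of all genes), and the list's median was -0.10. Ftl1 (mm8 chr7:45327649-45327708) read 16.86, 15.6, 16.13 and 16.31 in total RNA against 13.56, 14.06, 13.88 and 14.72 in heavy polysome RNA. No array overlapped, and the difference was -2.17 ± 0.31 (4.51-fold lower, adjusted p = 0.00836). The copy Ftl2-ps, nearly identical to it, gave -2 ± 0.28 (adjusted p = 0.00776), and the signals of the copies cannot be told apart. The heavy chain Fth1 carries the same kind of element and read 15.64, 16.03, 16.08 and 15.59 against 15.27, 15.25, 15.23 and 15.03. Its fractions did not overlap either, but the value was -0.64 ± 0.19 and did not pass (adjusted p = 0.148).

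mRNAs known for upstream open reading frames or other control of their translation gave 0 of 25 passing and a median of -0.19. All 4 heavy polysome arrays lay below all 4 total RNA arrays for 5 of them (20%, against 7.53% of all genes). Atf4, the transcription factor of the integrated stress response, read 11.23, 11.43, 11.7 and 11.81 in total RNA against 9.35, 10.06, 10.91 and 10.91 in heavy polysome RNA. The value was -1.24 ± 0.34 (adjusted p = 0.117), with heavy polysome array 1 lowest. Oaz1, the polyamine-sensing antizyme made by frameshifting, read 14.86, 14.53, 15.31 and 14.74 against 12.68, 13.83, 13.91 and 14.13, a value of -1.22 ± 0.32 (adjusted p = 0.0986). Atf5 had -0.9 (adjusted p = 0.159), Oaz2 -0.88 (adjusted p = 0.0616) and Ddit3 -0.82 with overlap (adjusted p = 0.461). Short-lived regulators gave 0 of 40 with a median of 0.00, with Id1 at -0.94 (adjusted p = 0.184) and Dusp2 at -0.76 (adjusted p = 0.1).

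At the other end, 1 gene was higher and no list had a member that was higher. Sipa1l2, which encodes a GTPase-activating protein for Rap (mm8 chr8:128304410-128304469), read 10.39, 9.98, 10.5 and 9.9 in total RNA against 11.22, 11.27, 11.04 and 11.06 in heavy polysome RNA. The fractions did not overlap, and the difference was 0.96 ± 0.19 (1.94-fold higher, adjusted p = 0.0367). It did not pass in 14 of 21 other settings, among them 7 of the 8 fits that leave out 1 array (all but total RNA array 1). Stip1, a co-chaperone that links Hsp70 and Hsp90, read 11.17, 11.43, 11.59 and 10.41 against 12.28, 12.35, 12.03 and 12.29, with total RNA array 4 lowest, and had 1.09 ± 0.26 (adjusted p = 0.0685). U2af2, a splice site factor, had 1.01 ± 0.26 (adjusted p = 0.1), the kinase gene Rock2 0.97 ± 0.23 (adjusted p = 0.0673) and the 14-3-3 gene Ywhag 0.97 (adjusted p = 0.0772).

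Proteasome subunits and glycolytic enzymes had the highest list medians. Of 34 proteasome subunit genes 33 lay above 0, with a median of 0.41 and 0 that passed. For 2 of the 34 all 4 heavy polysome arrays lay above all 4 total RNA arrays (5.88%, against 2.1% of all genes). The median by array was 0.21, -0.35, 0.01 and 0.18 in total RNA against 0.48, 0.21, 0.59 and 0.54 in heavy polysome RNA, so total RNA array 1 and heavy polysome array 2 met. With median centring the proteasome median was -0.07, when the median of all genes was -0.17, and relative to all genes it ran from 0.1 to 0.4 over the scalings. Psmb7, a catalytic subunit, read 12.03, 12.17, 12.01 and 12.26 against 12.76, 12.45, 12.74 and 12.55, with no overlap, and had 0.51 ± 0.17 (adjusted p = 0.227). Medians were 0.31 for 20 glycolytic genes, 0.22 for 19 aminoacyl-tRNA synthetases and 0.22 for 31 cytosolic chaperones, each with 0 passing, and relative to all genes they ran over the scalings from 0.06 to 0.33, from -0.03 to 0.22 and from -0.04 to 0.21. Farsa, a subunit of phenylalanyl-tRNA synthetase, had 0.58 (adjusted p = 0.211), and Bag1, a cochaperone, -1.12 (adjusted p = 0.0719). Mitosis and kinetochore genes had a median of 0.23 (36 genes, 0 passing), 0.19 to 0.29 relative to all genes over the scalings. Their median by array was -0.51, 0.15, 0.37 and -0.08 in total RNA against -0.41, 0.62, 0.71 and 0.07 in heavy polysome RNA, so the fractions overlapped.

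Initiation factors, 37 tested with 0 passing, had a median of 0.10. Eif4g3, the gene targeted in the other channel, had 0.54 ± 0.37 (adjusted p = 0.621), and Eif4g1, the major eIF4G scaffold, 0.78 ± 0.46 (adjusted p = 0.557). Eif4a1, the helicase, had 0.52 ± 0.18 (adjusted p = 0.256), with 0.09 to 0.51 relative to all genes over the scalings and other probes at -1.14 and 0.61. Eif4ebp1, the repressor of the cap-binding protein, had -0.58 (adjusted p = 0.193). The 28 other genes chosen by their role, cytoskeletal, matrix, chaperone and cell cycle genes among them, ran from -0.68 to 0.66, and 0 passed.

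**Figure D4:**
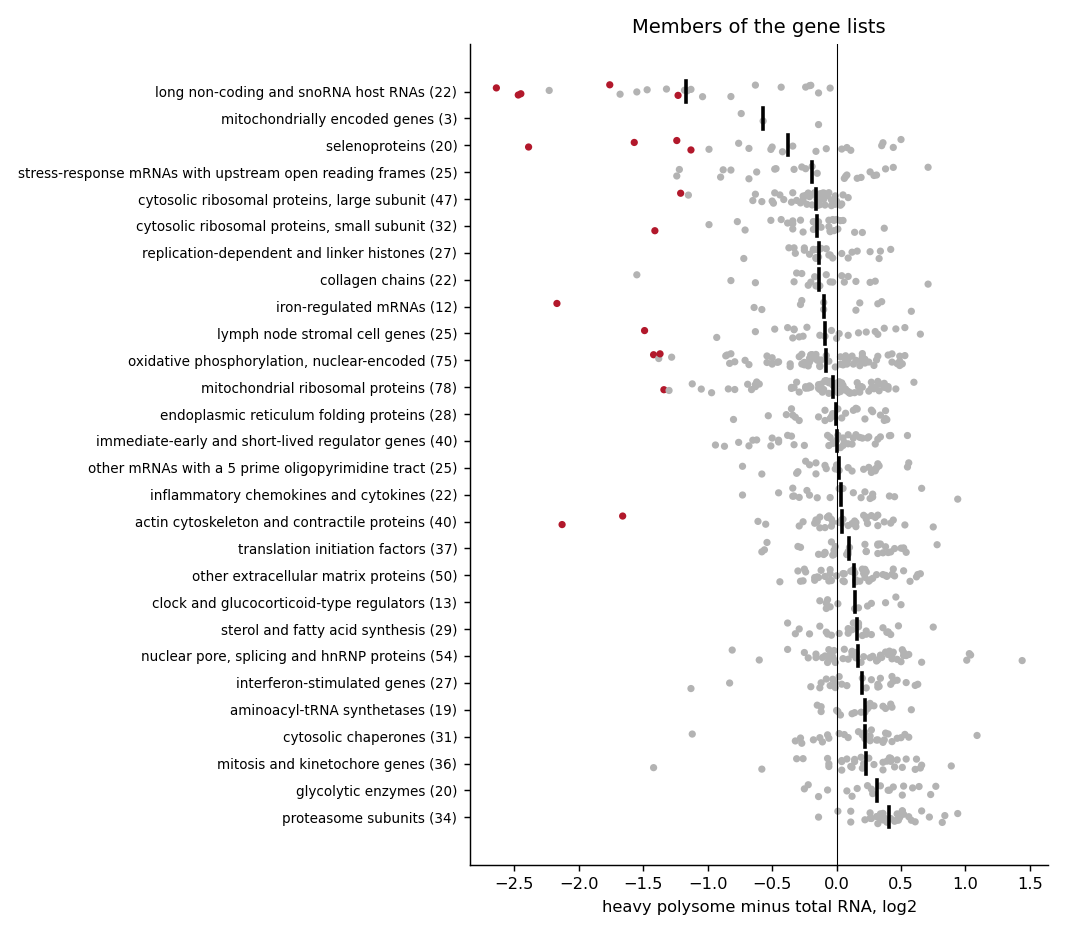
Differences (heavy polysome minus total RNA, log2) of the tested members of 28 gene lists, 1 point per gene, red where lower with an adjusted p below 0.05; black bars are list medians and brackets give the number tested. Long non-coding RNAs (-1.17), the 3 mitochondrially encoded genes (-0.57) and selenoproteins (-0.38) lie at the low end. Proteasome subunits (0.41) lie at the high end, but at -0.07 when arrays are only centred on their medians and all genes at -0.17.

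Of 25 lymph node stromal cell genes, with a median of -0.09, 1 passed (4%, against 1.73% of all genes). This was Cdh11, a cadherin of mesenchymal cells, which read 11.37, 11.6, 11.81 and 11.96 in total RNA against 10.38, 9.81, 10.24 and 10.32 in heavy polysome RNA. Its difference was -1.49 ± 0.21 with no overlap (adjusted p = 0.00727), but its other probes gave -0.06 and -0.58. Of 22 collagen chains 0 passed, with a median of -0.14. Col4a4, a basement membrane chain, had -1.55 (adjusted p = 0.072) and Col1a1, the main fibrillar chain, -0.15 (adjusted p = 0.897). The other matrix proteins gave 0 of 50 and a median of 0.13. In these bulk samples fewer cells of a type and less RNA per cell cannot be told apart.

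Interferon-stimulated genes, 27 tested with 0 passing and a median of 0.20, differed more between arrays of a fraction than between fractions. Isg15, a ubiquitin-like protein induced by interferon, read 12.16, 8.95, 8.41 and 13.54 on the total RNA arrays and 14.05, 9.81, 8.36 and 13.37 on the heavy polysome arrays. Arrays 1 and 4 were high and arrays 2 and 3 low in both fractions, with a value of 0.63 ± 1.41 (adjusted p = 0.908). Eif2ak2, the double-stranded RNA-activated kinase that halts initiation, read 10.53, 8.86, 10 and 11.57 against 11.18, 10.39, 10.28 and 11.52, a value of 0.61 (adjusted p = 0.703). The median of the list by array was 0.75, -0.88, -1.4 and 1.37 in total RNA against 1.24, -0.87, -1.37 and 1.29 in heavy polysome RNA. The median SD was 1.38 over the total RNA arrays and 1.58 over the heavy polysome arrays, but 0.58 for the difference between arrays of the same number. That SD was below both others in 23 of the 27 genes (85.2%), against 10.4% of all genes.

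**Figure D5:**
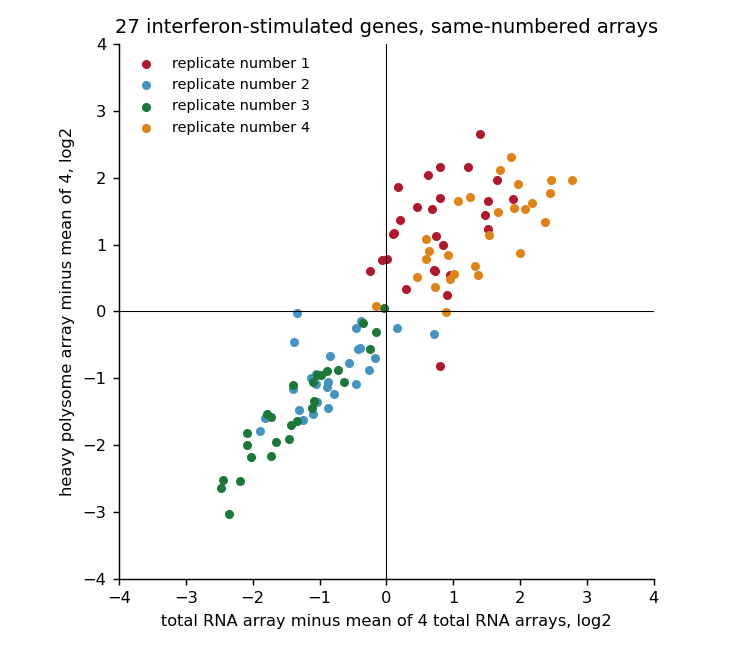
For 27 interferon-stimulated genes, the log2 Cy3 intensity on each heavy polysome array minus the mean of the 4 (vertical) against the same for the total RNA array of the same replicate number (horizontal), 1 point per gene and number. Numbers 1 and 4 lie mostly above both means and numbers 2 and 3 mostly below, as with Isg15, which was 12.16 and 13.54 on total RNA arrays 1 and 4 and 8.95 and 8.41 on arrays 2 and 3.

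For some genes only a bound can be given, since the probe was not well above background on any array of one fraction. A bound sets the mean of the bright fraction against the higher, on each array, of the dim probe's own signal and the lowest signal among probes well above background. Ssu2 was at least 2.19-fold lower in heavy polysome RNA (measured means 7.42 in total RNA against 6.08, adjusted p = 0.00907). Scrt1, a zinc finger repressor gene, was at least 2.05-fold lower (7.36 and 6.15, adjusted p = 0.0155). Dph3b-ps and Zfp652os had bounds of at least 1.51-fold and 1.38-fold and did not pass (adjusted p = 0.155 and 0.33). Both bounds rest in part on total RNA array 2, which read 7.54 for Dph3b-ps (others 6.53 to 6.85). For Zfp652os it read 7.51 (others 6.48 to 6.61). E2f4 is given no fold, as its total RNA mean rests on array 2 (9.16, others 6.23 to 6.4), and without that array the value was 0.03. No such bound was found in the other direction.

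Cells given Eif4g3 siRNA, measured in Cy5 on the same arrays and compared after seeing the control values, had differences of the same sign for these genes. Of the 244 genes lower in control siRNA cells, 244 lay below 0 in Cy5 and 20 passed there. The shares of all genes below 0 or passing in Cy5 are not given here, so these counts are only a description. After loess within arrays and quantile scaling of both channels, their median was -1.34 in Cy3 and -1.11 in Cy5. The difference between the siRNAs in heavy polysome minus total RNA, tested over all 14135 genes with limma, passed for 0 genes (at an unadjusted p under 0.05, for 38 of the 244, 15.6%, and for 739 of all genes, 5.23%). The 244 genes were chosen by their Cy3 values, which by itself favours a larger median and more calls in Cy3 than in Cy5. The channels share arrays and their scaling, so these values are not independent of each other.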

How the data were processed

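Agilent 2-colour whole mouse genome arrays measured total and heavy polysome RNA, 4 arrays each, with control siRNA in Cy3. RNA was amplified and labelled with a low input kit, per the labels' protocols. Spot and local background intensity, in each scanner's linear units, were deposited by the authors as Feature Extraction made them (version 10.7.3.1, and 10.5.1.1 for total RNA array 2, per the file headers). Aligner and caller do not apply, and other steps are not given in the sources used here. No spot was saturated.

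Here mean Cy3 intensity of 43379 non-control spots was corrected with normexp (offset 50), quantile-normalised over 8 arrays and put on the log2 scale. Non-uniform spots and population outliers, as marked in the scanner tables, were dropped, and spots of the same probe averaged (41174 probes). Names came from the scanner tables, 33026 probes being brought to RefSeq symbols. A gene was represented by its brightest probe and tested where well above background on at least 3 of 4 arrays of a fraction (limma 3.58.1 in R 4.3.3, lmFit and eBayes, Benjamini-Hochberg). Named genes were the 15 largest RefSeq-named differences in each direction among genes that passed, above background on all 8 arrays and without overlap, up to 5 members passing per list, genes chosen by role and the 5 largest bounds. Genes outside this rule were added after seeing values, namely small proteins, hosts, members of families and those near the threshold. Members, lists and roles were chosen with earlier results of these data known. The script was tested on simulated data. The deposited series matrix, in log2 of Cy5 over Cy3, and the deposited log10 ratio were not used for results. The number of arrays limits the precision.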

Additional observations from a re-analysis of the deposited data

Results flagged for a closer look

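In groups of 4 arrays, 18 of 198 checked had 1 array far from the other 3. Chance alone gives about 1 in 20. The distant array was total RNA array 2 for 6 of them and heavy polysome array 1 for another 6.

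Total RNA array 2 was far above the others for Rplp1-ps1 (14.55, others 10.53 to 11), Timm10b (14.63, others 14.15 to 14.23), Id1 (13.26, others 11.91 to 12.01), E2f4 (9.16, others 6.23 to 6.4) and Zfp652os (7.51, others 6.48 to 6.61), and below them for Oaz2 (12.22, others 12.66 to 12.75). Without that array E2f4 had a value of 0.03.

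Heavy polysome array 1 was above the others of its fraction for Pcif1 (8.42, others 7.42 to 7.5), Tma7 (12.53, others 11.7 to 11.79), Timm8b (12.6, others 11.83 to 11.87) and Dubr (8.56, others 7.67 to 7.77). It was below them for Smim10l1 (9.27, others 9.81 to 9.9) and Bag1 (9.99, others 10.9 to 11.06).

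The others were Malat1 on total RNA array 4 (10.31, others 9.52 to 9.56), Meg3 on heavy polysome array 2 (8.36, others 8.56 to 8.58), Farsa on heavy polysome array 3 (11.95, others 11.68 to 11.71) and Rock2 on the same array (8.32, others 8.92 to 8.98). On heavy polysome array 4 they were Ipo7 (9.96, others 10.51 to 10.6) and Fth1 (15.03, others 15.23 to 15.27).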

How the results depend on the processing

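The 244 lower genes, where tested, lay below 0 in all 21 alternatives. Their count was 0 with median centring alone, 72 with heavy polysome arrays 2 and 4 as their mean, and 61 to 241 with 1 array left out. The count of higher genes was 2 with loess and Aquantile, 6 with no filter on dim probes, 3 without total RNA array 2 and heavy polysome array 1 together (chosen after seeing the data; 300 lower), and 0 to 5 with 1 array left out. It was 0 with cyclic loess, with median centring, with a trend of variance and with the mean of heavy polysome arrays 2 and 4. The lower count was 362 with the processed signal scaled at its 75th percentile, and 220 with slide as a random block (correlation 0.053). Of the 54 named genes that passed, 0 kept their call in every alternative, as median centring ended all calls, and 0 changed sign. Of 45 that did not pass, 17 passed in at least 1 alternative.

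With the replicate block the counts were 53 lower and 0 higher, and 52 of the 244 genes were among the 53. Of the long non-coding RNAs 6 passed. Over all genes, deviations of same-numbered arrays correlated at -0.33, 0.06, 0.44 and 0.07, so the main fit did not take the numbers as pairs. In 23 of 27 interferon-stimulated genes the same-number difference varied less than either fraction. Whether the numbers mark shared cultures was not tested. Over the interferon-stimulated genes the median standard error was 0.26 with the replicate block and 0.78 without, and 0 passed.

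Some values near 0 changed sign. Rps6 was -0.36 with the processed signal, -0.01 with cyclic loess, -0.49 with median centring, -0.02 without total RNA array 2, -0.05 without heavy polysome array 3 and -0.06 without total RNA array 2 and heavy polysome array 1. Isg15 was -0.15 without total RNA array 3, -0.25 without heavy polysome array 1, -0.02 without heavy polysome array 4 and -0.86 without the pair. Eif4a1 was -0.08 with median centring and 0.00 as the mean of its probes, Nap1l1 -0.10 with median centring, Eif4g3 -0.01 without the pair, and without total RNA array 2 Col1a1 was 0.08 and E2f4 0.03. Xist was 0.01 as the mean of its probes. Relative to the median of all genes, Eif4a1 (0.09) and Nap1l1 (0.07) stayed above 0 with median centring and Rps6 with cyclic loess (0.01). With 1 array left out the ranges were -0.05 to 0.13 for Rps6, -0.25 to 1.64 for Isg15, -0.32 to 0.08 for Col1a1, -0.35 to 0.18 for Xist and -0.95 to 0.03 for E2f4. The cause of these changes was not tested. A comparison by coding length was not run, as no protein sequences were used here. Dim probes in heavy polysome RNA give only bounds.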

Other observations

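Other gene name families, chosen after their values were seen, lay on either side. Of 153 genes named Tmem, for transmembrane proteins, 10 were lower in heavy polysome RNA (6.54%, against 1.73% of all genes), with a median of -0.19. Of 28 Polr genes, subunits of RNA polymerases, 3 were lower with a median of -0.08, and of 13 Lsm genes, RNA-binding ring proteins, 1 was lower with a median of -0.52. The 14 Ift genes of ciliary transport had a median of 0.14 and the 12 Snrp genes of spliceosomal particles one of 0.02, with 0 passing in each.

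Of the 10 lower genes with a pyrimidine start, 7 were protein-coding. Sys1, a Golgi membrane protein gene, was the lowest of these at -1.66. The 293 protein-coding genes with such a start had a median of -0.02.

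Total RNA array 2 was the highest of the total RNA arrays for 119 of the 244 lower genes. Heavy polysome array 1 was the highest of its fraction for 91 of them and the lowest for 89. Without both arrays 300 genes were lower, a comparison added after seeing the data.

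Among the transcripts encoded in the mitochondrion, CYTB ran from 11 on total RNA array 1 to 15.19 on array 2, against 12.89 to 13.79 in heavy polysome RNA.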
